A study of Mus musculus with 32 samples.

Results

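The normal maturation of quadriceps muscle in male mice between 5 and 25 weeks of age was described from 8 of the 32 RNA-seq libraries of the series. The libraries were chosen by their labels, as the 4 wild-type (WT) males aged 25 weeks and the 4 WT males aged 5 weeks, 1 library per mouse. WT mice came from breeders heterozygous for Col6a2tm1(KOMP)Vlcg, a knockout allele made in C57BL/6N and crossed back to C57BL/6J for 5 generations, and carried no allele or agent of the study. RNA was taken from cryosections of snap-frozen muscle, so each library holds the RNA of all cells in the section. The change with age was compared with that in WT females (4 mice at each age) and in males homozygous for the knockout allele (Col6a2-/-, 4 mice at each age), which lack a chain of collagen VI from birth. Levels are in TPM, a measure of transcript abundance scaled for transcript length and for the total of the library. Changes are differences of log2(TPM + 1), 25 weeks minus 5 weeks, with the standard error (SE) and the Benjamini-Hochberg adjusted p of limma, and a gene is said to be called, higher or lower, at an adjusted p under 0.05.

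Between weaning and full adulthood a mouse limb muscle grows by enlarging fibres it already has. Satellite cells, the resident stem cells, divide and fuse into fibres early in this period and then become quiescent. Fibroblasts lay down collagens and basement membrane while the muscle lengthens and widens, and IGF1, a growth factor made in liver and in muscle itself, promotes fibre growth. Young muscle also still contains proteins of the fetal contractile apparatus, among them the cardiac form of α-actin, which the skeletal form replaces.

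The labels held. Col6a2 lay between 6.60 and 51.2 TPM in the 8 WT male libraries and at or below 0.171 in Col6a2-/- males. The Y-linked gene Ddx3y lay between 17.3 and 26.0 TPM, and Xist at or below 0.0515. Muscle creatine kinase (Ckm) had 2538 to 4070 TPM, whereas Krt5 of epidermis and Nppa of heart were listed at 0 in all 8 libraries and albumin (Alb) reached at most 0.929. Not all markers of other tissues were absent. Ucp1 of brown fat had 2.89 TPM in replicate 1 at 5 weeks and 0 in the other libraries. Acan of cartilage had 0.069 to 0.889 TPM at 5 weeks, the most in replicate 3.

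Some libraries stood apart. Replicate 4 at 25 weeks had the lowest share of its age, 32%, of its TPM in mitochondrial genes, against 44.6% to 46.9% in the others of its group (31.9% to 41% at 5 weeks, lowest in replicate 3), and 173 TPM of myoglobin (Mb) against 660.0 to 1320. It also had little of the myosins of slow and oxidative fibres, Myh7 at 0.0895 TPM and Myh2 at 68.9. Replicate 3 at 5 weeks, and less so replicate 4, had the most RNA of tendon and bone-type collagen: Tnmd at 62.1 and 38 TPM and Col1a1 at 523 and 334, against 11.6 to 23.9 and 114 to 147 in replicates 1 and 2. Haemoglobin (Hbb-bs) reached 675 TPM in replicate 2 at 5 weeks and 1208 in replicate 2 at 25 weeks, against 99.0 to 197 in the other 6. Replicate 1 at 5 weeks had 11946 genes with at least 1 TPM, against 11438 to 11495 in the others of its group. Without replicate 3 at 5 weeks and replicate 4 at 25 weeks, an alternative chosen after the values were seen, the comparison below gave 257 higher and 2959 lower calls. Without replicate 1 at 5 weeks alone it gave 305 and 2181, the fewest in total of the fits without 1 library. All libraries together gave 332 and 3329.

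**Figure D1:**
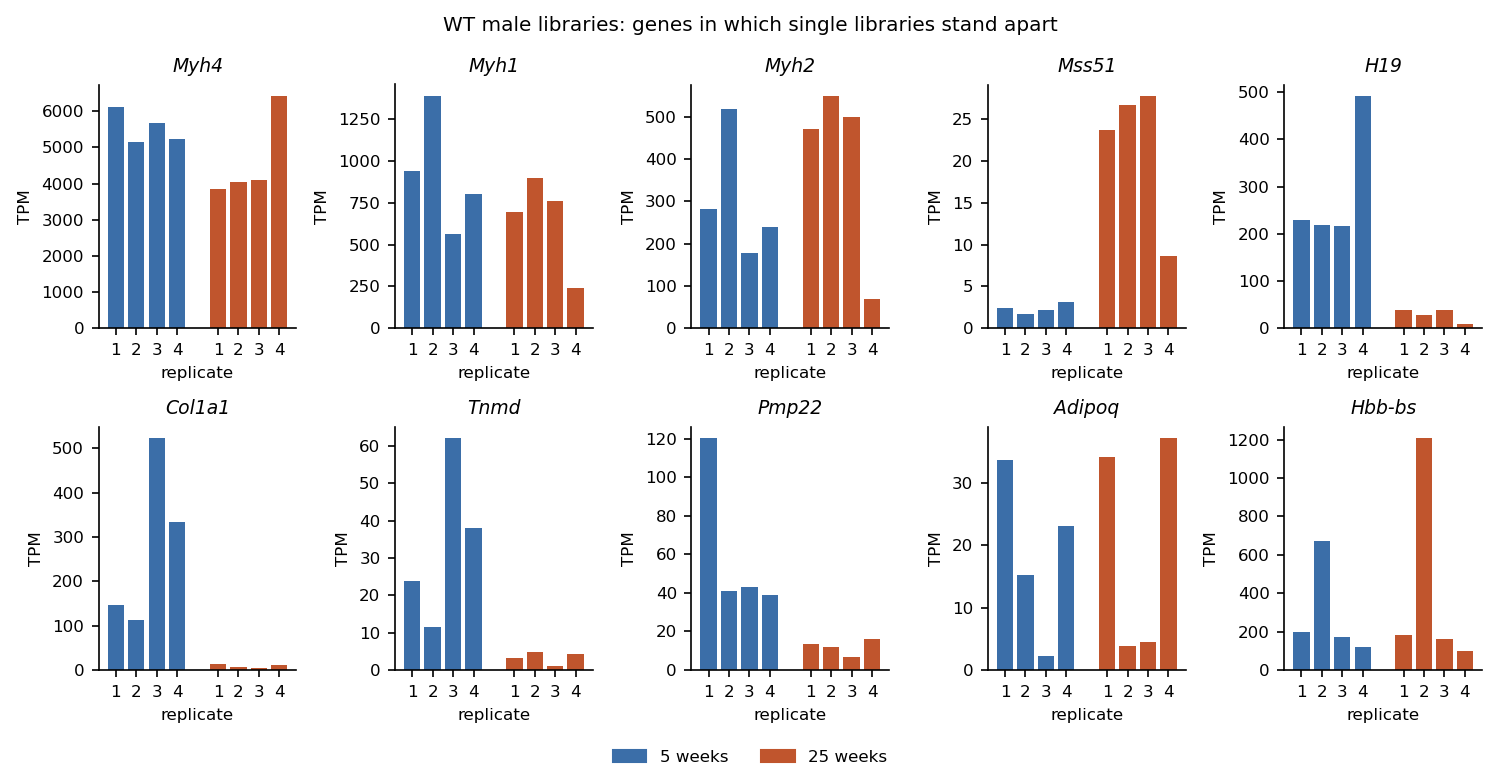
TPM (y axis, linear, from 0) of 10 genes in each WT male library, by replicate number (x axis); blue bars are 5 weeks and orange bars 25 weeks. Replicate 4 at 25 weeks has the lowest Myh1, Myh2 and H19 of all 8 and the highest Myh4, and replicates 3 and 4 at 5 weeks have the most Col1a1 and Tnmd.

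Mitochondrial genes held 37 ± 4.3% of TPM at 5 weeks and 42.1 ± 6.81% at 25 weeks (SD, n = 4), a difference of 5.11 (two-sided exact permutation p = 0.2, smallest possible 0.0286). The Rn7s genes, here all whose symbols begin with Rn7s, among them those of the RNA of the signal recognition particle, held 24.6 ± 2.51% and 25.7 ± 4.08% (exact permutation p = 0.657). Without replicate 4 at 25 weeks the mitochondrial difference was 8.48 (exact permutation p = 0.0571), and 3.41 without replicate 3 at 5 weeks (exact permutation p = 0.429). The Rn7s difference of 1.07 ran from -0.52 to 2.69 without single libraries, the lowest without replicate 4 and the highest without replicate 2 at 25 weeks. All other genes were left with 38.4 ± 1.87% and 32.2 ± 4.47% (exact permutation p = 0.0857). TPM sum to a fixed total, so the TPM of a gene also depends on this remainder. The median change over the 12817 genes tested was -0.21, and its cause was not tested. Inferred depth was also higher at 5 weeks, 11.4 ± 1.3 against 8.07 ± 1.09 gigabases (exact permutation p = 0.0286). So was the number of genes with at least 1 TPM (11584 ± 243 against 10580.3 ± 219, with the same p). Depth and age therefore cannot be told apart within these 8 libraries. With inferred depth as a covariate in the limma fit, 281 genes were called higher and 5312 lower, with a median of -0.31.

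Of the 12817 genes tested, limma called 3661 (28.6%) between the ages. In TPM as deposited 332 were higher at 25 weeks (2.59%) and 3329 lower (26.0%), and 56 of the higher and 421 of the lower calls were at least 2-fold on the log2(TPM + 1) scale. The balance of directions depended on the scaling. With median-of-ratios size factors, where the median gene moved by 0.02, 1942 genes were called higher (15.2%) and 1870 lower (14.6%). Quantile normalization called 1682 higher (13.1%) and 1618 lower (12.6%). Without the 100 most abundant genes the split was 1144 (8.93%) and 2461 (19.2%), and without mitochondrial and Rn7s genes 777 (6.06%) and 1449 (11.3%). In all 5 scalings together, TPM and 4 others, 329 genes were called higher (2.57%) and 1246 lower (9.72%). Below, a gene is said to be called in all scalings when it is one of these, and each list's count is to be read against the shares of all genes, 26.0% lower and 2.59% higher in TPM and 9.72% and 2.57% in all scalings. List medians are to be read against -0.21. The ages did not overlap, every library of one age being above every library of the other, in 343 genes higher (2.68%) and 4070 genes lower (31.8%) at 25 weeks.

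**Figure D2:**
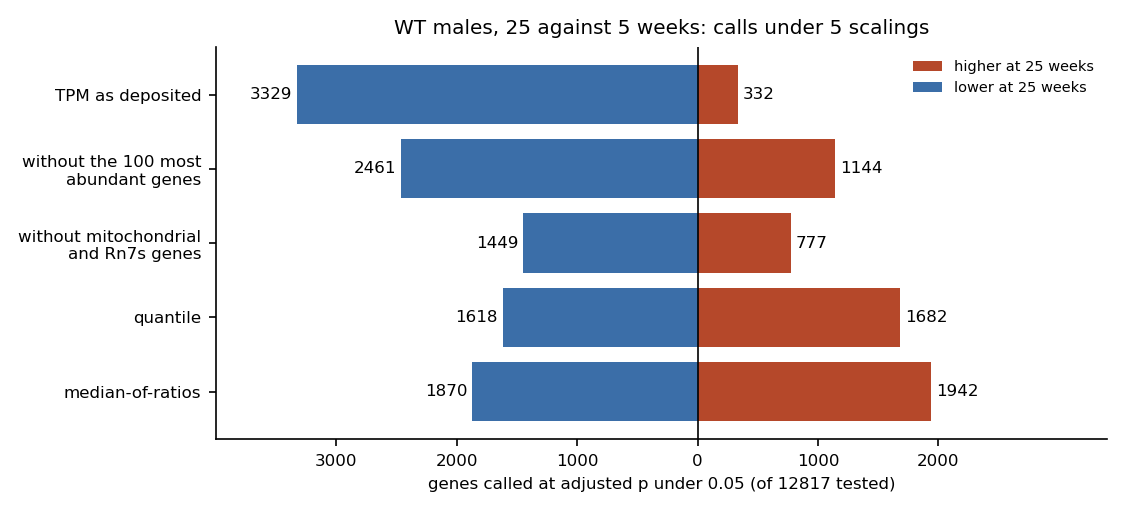
Number of genes called between 25 and 5 weeks in WT males (x axis) under 5 scalings of the same values (y axis), orange for higher at 25 weeks and blue for lower. TPM as deposited gives 332 higher and 3329 lower calls, and median-of-ratios gives 1942 and 1870.

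The largest called change of all was in a fetal form of actin. Actc1 (ENSMUSG00000068614, chromosome 2, 114047282 to 114053548 on GRCm38), cardiac α-actin, had 2327, 1592, 2878 and 1738 TPM at 5 weeks and 15.3, 17.7, 18.4 and 46.6 TPM at 25 weeks. All libraries at 5 weeks lay far above all at 25 weeks, among which replicate 4 was the highest. Its mean went from 2134 ± 589.5 to 24.5 ± 14.8 TPM (SD, n = 4), a change of -6.49 (SE 0.36, adjusted p 2.51e-13). C130080G10Rik, a gene of unstated function whose annotated start lies 786 bases from that of Actc1 on the opposite strand, went with it. It fell from 15.6 ± 2.73 to 0.0991 ± 0.0834 TPM, a change of -3.90 (SE 0.23, adjusted p 5.58e-13).

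Skeletal α-actin moved the same way in TPM and much less. Acta1 had 9198, 9419, 9313 and 8818 TPM at 5 weeks and 5117, 5546, 5820.4 and 7074 TPM at 25 weeks, without overlap between the ages. The change was -0.65 (SE 0.12, adjusted p 0.000158), with TPM, and it lost its call under quantile normalization (median-of-ratios estimate -0.33). At both ages Acta1 was the more abundant of the pair per length, although at 5 weeks Actc1 was still at a mean of 2134 ± 589.5 TPM. The promoters of both actins are shown because these are the 2 sarcomeric α-actins, and each holds 1 match to the CArG box, the site of serum response factor. The sequences are RefSeq's on GRCm38.p6, the 250 bases before RefSeq's start of the gene, which for Actc1 lies inside the longer GENCODE gene given above, read 5′ to 3′ on the minus strand, with the match in capitals. Of all 32851 RefSeq promoters searched over the same length, 1.47% held such a match, on either strand.
Actc1, chr2:114052876-114053125: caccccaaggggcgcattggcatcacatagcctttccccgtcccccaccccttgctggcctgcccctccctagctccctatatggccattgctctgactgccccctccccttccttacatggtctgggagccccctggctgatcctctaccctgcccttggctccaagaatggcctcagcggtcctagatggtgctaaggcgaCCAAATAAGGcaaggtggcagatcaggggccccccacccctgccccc
Acta1, chr8:123894776-123895025: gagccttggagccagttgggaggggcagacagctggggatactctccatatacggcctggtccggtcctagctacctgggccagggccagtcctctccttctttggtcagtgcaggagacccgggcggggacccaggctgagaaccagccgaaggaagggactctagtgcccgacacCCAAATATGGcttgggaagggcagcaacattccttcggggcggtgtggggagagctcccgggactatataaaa
A match is a description of these letters only.

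Of 11 tested members of a list of developmental contractile and junction genes, 3 were called lower and none higher, a share near the 26.0% of all genes: Actc1, the cell adhesion molecule Ncam1 (-1.06, 2.91 to 3.92 TPM at 5 weeks and 0.47 to 1.87 TPM at 25 weeks) and the acetylcholine receptor subunit Chrna1 (-0.97, 2.41 to 5.32 TPM at 5 weeks and 1.04 to 1.75 TPM at 25 weeks). All 3 were called in all scalings. The perinatal myosin Myh8 had 115 to 139.6 TPM at 5 weeks and 89.1 to 122 TPM at 25 weeks (change -0.28, SE 0.16), and the embryonic myosin Myh3 and atrial light chain Myl4 had 1.07 to 1.87 TPM at 5 weeks and 0.434 to 1.2 TPM at 25 weeks, and 2.34 to 2.78 TPM at 5 weeks and 1.47 to 1.88 TPM at 25 weeks. The troponins and light chain Tnnt2 (adjusted p 0.0599), Tnni1 (0.510) and Myl6b (0.223) were not called.

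None of the 4 adult myosin heavy chains was called in either direction. Myh4, the myosin of fast glycolytic fibres, had 6118, 5143, 5673 and 5238 TPM at 5 weeks and 3855, 4042, 4108 and 6419 TPM at 25 weeks, with adjusted p 0.321. Myh1 had 564 to 1389 TPM at 5 weeks and 241 to 899 TPM at 25 weeks, Myh2 178 to 517 TPM at 5 weeks and 68.9 to 549 TPM at 25 weeks and Myh7, the slow myosin, 1.49 to 66.1 TPM at 5 weeks and 0.0895 to 22.8 TPM at 25 weeks, with adjusted p of 0.136, 0.837 and 0.651. The lowest Myh1, Myh2 and Myh7 at 25 weeks, and the highest Myh4, were all in replicate 4, and without that library 1 of the 4, Myh2, was called higher. At an unadjusted p under 0.05 limma gave 0 of these 4 genes. Slow fibre genes gave 0 calls of 11 tested by limma, and 1 of them had an unadjusted p under 0.05.

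Among 14 tested fast fibre genes 5 were called lower and none higher (8 lower without replicate 4 at 25 weeks), with a median of -0.29 in TPM and 0.03 with median-of-ratios. Of the 5, 3 were called in all scalings: the fast regulatory light chain Mylpf, the light chain Myl1 and calsequestrin Casq1. Mylpf had 10599, 8642, 10231 and 10825 TPM at 5 weeks and 3947, 3527, 3814 and 5478 TPM at 25 weeks, and every 5-week library was above every 25-week one. The change was -1.28 (SE 0.15, adjusted p 2.84e-07). Myl1 changed by -0.88 (SE 0.17, adjusted p 0.000383) and Casq1, the calcium-binding protein of the sarcoplasmic reticulum, by -1.15 (SE 0.19, adjusted p 6.27e-05). Parvalbumin (Pvalb), which buffers calcium in fast fibres and was named after its values were seen, had a change of -0.81 (adjusted p 0.00651) and was not called in all scalings. Among 20 genes of calcium handling 6 were called lower and 1 higher, near the 26.0% and 2.59% of all genes, and 5 and 4 with median-of-ratios. Sypl2, a protein of the triad junction, fell from 74.8 ± 7.85 to 24.9 ± 4.4 TPM, and the micropeptide inhibitor of the calcium pump, Mrln, was the 1 higher (0.69, adjusted p 0.0167), a call lost without replicate 2 or 3 at 5 weeks or replicate 4 at 25 weeks.

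**Figure D3:**
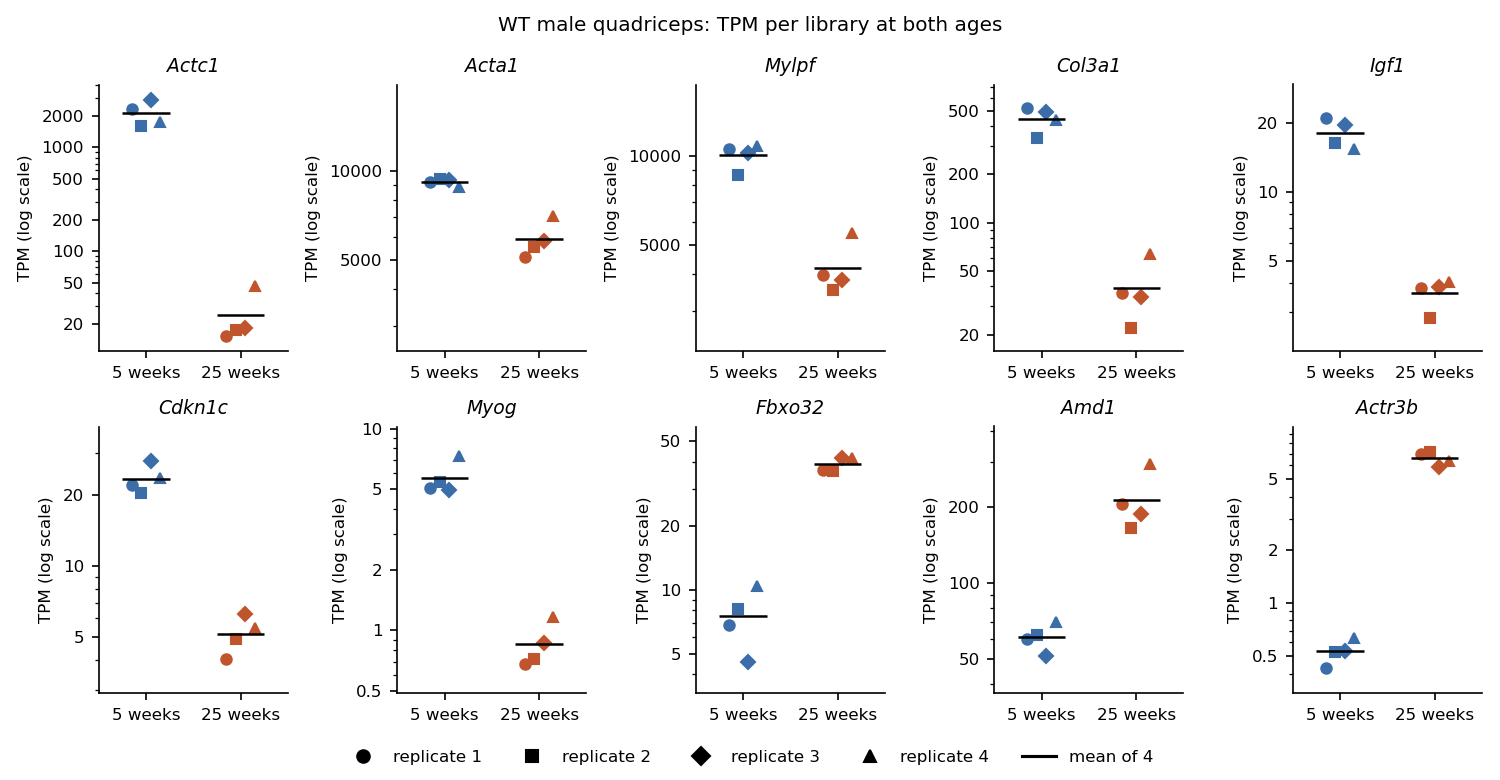
TPM per library (y axes, log scale) at 5 weeks (blue) and 25 weeks (orange) for 10 genes, with symbols for replicates 1 to 4 and a black line at the mean of 4. The 2 ages do not overlap in any of the 10 genes; Fbxo32, Amd1 and Actr3b are higher at 25 weeks and the other 7 lower.

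Collagen genes fell together. All 10 tested members of the list of fibrillar and associated collagens were called lower, in all scalings, with a median of -2.25 against -0.21 for all genes. Here and below, RNA from whole muscle cannot tell fewer cells of a type from less RNA per cell. Col3a1 (ENSMUSG00000026043, chromosome 1, 45311538 to 45349706), the main collagen of loose connective tissue, had 519.7, 338, 489.6 and 435 TPM at 5 weeks and 36.1, 22, 34.3 and 64 TPM at 25 weeks. The ages were far apart, with replicate 4 the highest at 25 weeks, and the change was -3.56 (SE 0.31, adjusted p 4.07e-09). Col1a1, the main chain of tendon, bone and scar collagen, had 147, 114, 523 and 334 TPM at 5 weeks and 13.2, 6.6, 5.37 and 12.2 TPM at 25 weeks. The 5-week libraries ranged widely, with replicates 3 and 4 the highest, yet the lowest of them was above all at 25 weeks, and the change was -4.58 (SE 0.49, adjusted p 1.24e-07). Col1a2 had 202 to 682 TPM at 5 weeks and 16.9 to 33.6 TPM at 25 weeks (-3.92), and the minor fibril chains Col5a1 and Col5a2 changed by -2.34 and -2.45.

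The chains of collagen VI, which forms a microfibrillar network around muscle fibres and whose loss defines the knockout of the study, had 4 tested genes, and each was called lower in all scalings. Col6a5, also on the list, was too low to be tested. Col6a2 (ENSMUSG00000020241, chromosome 10, 76595762 to 76623630) had 40.8, 31.3, 51.2 and 43.9 TPM at 5 weeks and 8.55, 6.6, 7.28 and 11.2 TPM at 25 weeks, with no overlap. It changed by -2.19 (SE 0.13, adjusted p 1.46e-12). Col6a1 went from 57.1 ± 9.31 to 12.7 ± 2.92 TPM and Col6a3 from 54.9 ± 11.5 to 9.64 ± 2.84 TPM, changes of -2.09 and -2.41. Col6a6 had lower TPM than these at both ages (2.69 to 4.64 TPM at 5 weeks and 0.739 to 2.17 TPM at 25 weeks), with a change of -1.23.

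Basement membrane genes gave 14 calls lower and none higher of 15 tested, 13 of them in all scalings (median -1.26). Col4a1 and Col4a2 encode the chains of the collagen IV sheet. Col4a1 had 97.7, 94.7, 84.4 and 87.3 TPM at 5 weeks and 18.7, 14.1, 21.1 and 25.1 TPM at 25 weeks, a change of -2.18 (SE 0.19, adjusted p 5.15e-09). Col4a2 changed by -1.93. The genes lie head to head and their annotated starts overlap, and whether counting used strand, which would separate reads of overlapping genes on opposite strands, is not given in the sources used here. Col15a1, which anchors the basement membrane to the matrix, went from 28.7 ± 1.89 to 5.43 ± 1.57 TPM (-2.24), and nidogen 1 (Nid1) from 41.3 ± 4.36 to 14.5 ± 1.86 TPM (-1.45).

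Genes for collagen processing gave 19 lower calls of 21 tested, 18 in all scalings (median -1.14). The lysyl oxidase Loxl2, which cross-links collagen, went from 13.8 ± 3.76 to 2.17 ± 0.649 TPM (-2.21). The lysyl hydroxylase Plod1 changed by -1.11, and the collagen chaperone Fkbp10 by -1.64. Sparc, a collagen-binding matricellular protein, had 434, 314, 525 and 444 TPM at 5 weeks and 70.1, 48.2, 45.1 and 81.6 TPM at 25 weeks, and all 5-week libraries were several times above those at 25 weeks (-2.81 (SE 0.25, adjusted p 6.61e-09)). Periostin (Postn) had 26 to 62.3 TPM at 5 weeks and 1.84 to 4.4 TPM at 25 weeks and the change was -3.44.

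Proteoglycans and matricellular genes were lower in 15 of 22 tested, 10 in all scalings, and in 9 when replicate 3 at 5 weeks was left out. Biglycan (Bgn) went from 34 ± 6.44 to 9.31 ± 1.5 TPM (-1.75) and lumican (Lum) from 40.1 ± 8.54 to 13 ± 2.53 TPM (-1.54). Among elastic fibre genes 13 of 17 were called lower, 10 in all scalings. Fibrillin 1 (Fbn1), the scaffold of elastic microfibrils, had 47.2, 35.4, 43.9 and 37.5 TPM at 5 weeks and 7.58, 5.21, 7.9 and 11 TPM at 25 weeks and changed by -2.26 (SE 0.26, adjusted p 3.73e-07). Elastin itself (Eln) changed by -2.13 and Mfap4 by -2.52; Mfap4 overlaps Mapk7 in the annotation.

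Ligands and regulators of TGFβ and BMP signalling, the pathway named in the title of the series, were examined as a list. Of 25 tested, 2 were called lower and none higher, against 26.0% and 2.59% of all genes. With median-of-ratios 3 were higher and 2 lower. The 2 lower became 1 without replicate 3 at 5 weeks or replicate 1 or 3 at 25 weeks and 4 without replicate 4 at 25 weeks, and the list median was -0.24 against -0.21 for all genes. Fstl1, a secreted follistatin-like protein, had 73.4, 51.5, 72.4 and 59.5 TPM at 5 weeks and 13.7, 10.7, 11.1 and 16.2 TPM at 25 weeks, with no overlap, and changed by -2.23 (SE 0.23, adjusted p 5.67e-08). Tgfb1 had 0.965 to 1.68 TPM at 5 weeks and 0.464 to 0.878 TPM at 25 weeks, a change of -0.47 (adjusted p 0.0220), but it was not called in all scalings and lost its call without replicate 3 at 5 weeks or replicate 1 or 3 at 25 weeks. Myostatin (Mstn), the inhibitor of muscle growth, named after its values were seen, had 12.9 to 18.9 TPM at 5 weeks and 15.5 to 24.8 TPM at 25 weeks (adjusted p 0.480).

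**Figure D4:**
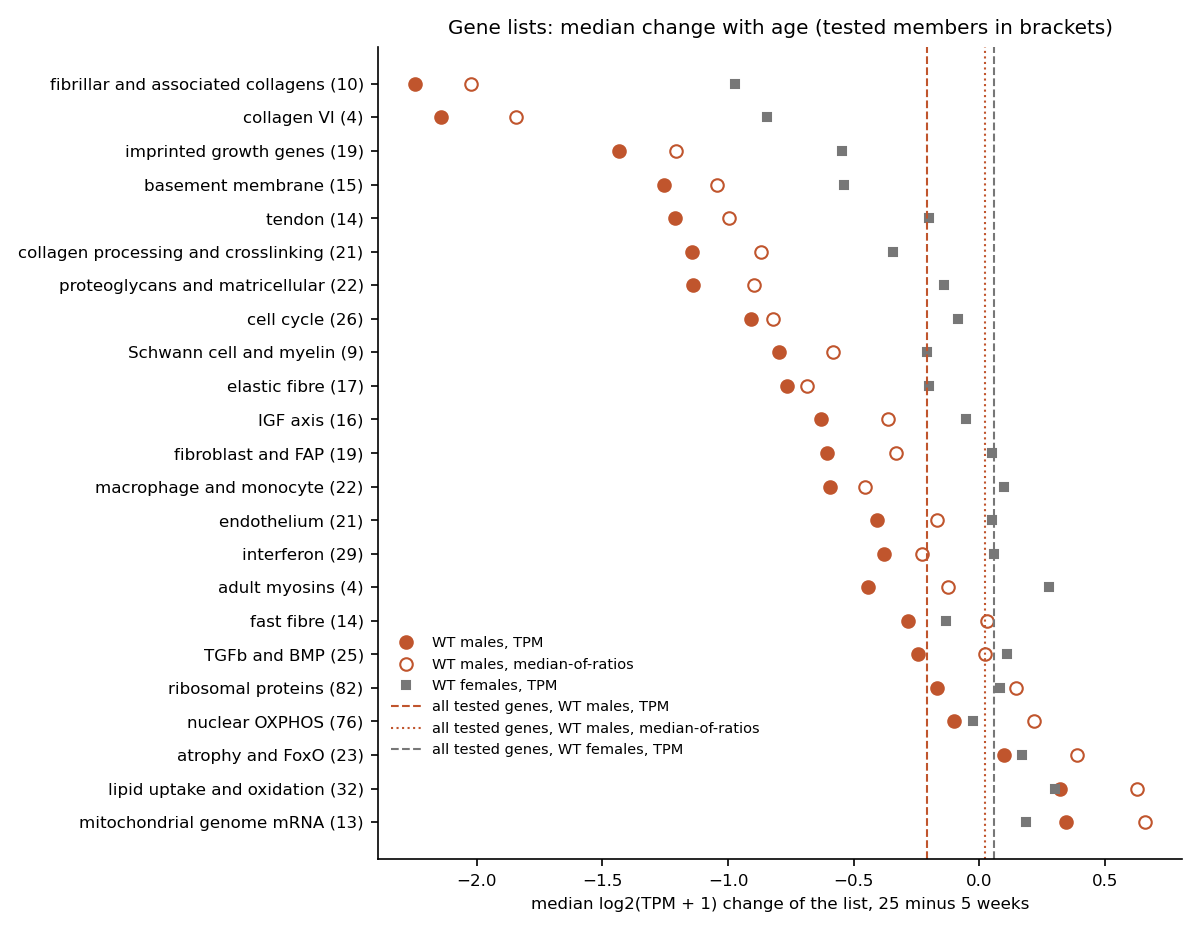
Median change of log2(TPM + 1), 25 minus 5 weeks (x axis), for 23 gene lists (y axis, tested members in brackets): filled circles are WT males in TPM, open circles WT males with median-of-ratios size factors and squares WT females in TPM. Vertical lines mark the median of all tested genes in each case; collagen, imprinted and basement membrane lists lie furthest to the left in males.

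The genes of tendon moved with the collagens. Of 14 tested tendon genes 10 were called lower and none higher, 8 in all scalings, and 7 when replicate 3 at 5 weeks and replicate 4 at 25 weeks were both left out. Their summed level ran from 81.3 to 385 TPM at 5 weeks and 28.2 to 83.5 at 25 weeks, so the ranges overlapped slightly. Tenomodulin (Tnmd) had 23.9, 11.6, 62.1 and 38 TPM at 5 weeks and 3.24, 4.82, 1.21 and 4.3 TPM at 25 weeks and the cornea and tendon proteoglycan Kera 8.73 to 43.2 TPM at 5 weeks and 1.15 to 3.78 TPM at 25 weeks, changes of -2.85 and -2.58. Cartilage collagen Col2a1 reached 0.63, 0.457, 3.61 and 1.32 TPM at 5 weeks and at most 0.0178 at 25 weeks, and aggrecan (Acan) was listed at 0 in all 4 libraries at 25 weeks. The part of tendon RNA in the changes of matrix genes was not tested.

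Of 16 tested genes of the IGF axis 8 were called lower and none higher, 6 in all scalings (median -0.63). Igf1 (ENSMUSG00000020053, chromosome 10, 87858265 to 87937042) had 21, 16.3, 19.5 and 15.4 TPM at 5 weeks and 3.81, 2.83, 3.86 and 4.07 TPM at 25 weeks. The groups were well separated, and the change was -2.03 (SE 0.24, adjusted p 7.24e-07). The receptors did not pass the test: Igf1r had 1.53 to 1.8 TPM at 5 weeks and 1.0 to 1.49 TPM at 25 weeks (adjusted p 0.158), the insulin receptor Insr 5.84 to 7.48 TPM at 5 weeks and 5.52 to 7.17 TPM at 25 weeks (0.754) and the growth hormone receptor Ghr 33.1 to 43.6 TPM at 5 weeks and 27.2 to 46.1 TPM at 25 weeks (0.883). Irs1, the adaptor that carries the signal of both receptors, fell from 21.2 ± 3.29 to 7.85 ± 1.17 TPM (-1.33), whereas Irs2 had 2.08 ± 1.36 and 1.92 ± 0.199 TPM (adjusted p 0.985). Of the binding proteins, Igfbp7 changed by -1.45, Igfbp3 by -1.12 and Igfbp4 by -1.10, the last with overlapping ages and a call lost without replicate 1 at 5 weeks or replicate 2 at 25 weeks; Igfbp6 (-0.89) and the decoy receptor Igf2r (-0.56) were called in TPM but not in all scalings. Igfbp5, Igfals and Socs2, a feedback inhibitor of growth hormone signalling, were not called (adjusted p 0.361, 0.0741 and 0.0600).

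Imprinted genes that act in prenatal and early growth were lower in 15 of 19 tested, 13 in all scalings, and higher in 1. The median was -1.43. H19, a non-coding RNA next to Igf2, had 229, 219, 216 and 492 TPM at 5 weeks and 39.4, 28.2, 38.9 and 8.71 TPM at 25 weeks; the highest library at 5 weeks and the lowest at 25 weeks were both numbered 4, from different mice, and the change was -3.38 (SE 0.40, adjusted p 6.04e-07). Igf2 itself had 3.17 to 7.24 TPM at 5 weeks and 1.02 to 1.63 TPM at 25 weeks (-1.43). Cdkn1c, an inhibitor of the cell cycle from the same imprinted cluster, had 22.1, 20.4, 27.8 and 23.5 TPM at 5 weeks and 4.04, 4.9, 6.28 and 5.48 TPM at 25 weeks and changed by -1.99 (SE 0.27, adjusted p 6.41e-06). From a second cluster, Meg3 changed by -2.30 and Rian, which hosts small nucleolar RNAs that overlap it, by -3.08. Mest went from 9.45 ± 0.982 to 0.849 ± 0.565 TPM (-2.54) and overlaps Copg2. The 1 higher, Asb4 (0.42, adjusted p 0.0348), was named after its values were seen and lost its call in 9 alternatives.

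Cell division genes were nearly all lower. Of 26 tested, 23 were called lower, 21 in all scalings, with a median of -0.91. Top2a, which untangles replicated DNA, had 4.48, 4.76, 5.49 and 3.21 TPM at 5 weeks and 0.458, 0.18, 0.197 and 0.108 TPM at 25 weeks. Mki67, the proliferation antigen, had 2.94, 3.32, 3.18 and 2.25 TPM at 5 weeks and 0.222, 0.0984, 0.0959 and 0.10 TPM at 25 weeks, and the mitotic cyclin Ccnb2 1.01 to 1.14 TPM at 5 weeks and 0 to 0.035 TPM at 25 weeks. All were low at 5 weeks and close to 0 at 25 weeks, and they changed by -2.14, -1.79 and -1.03. Ccnd1, the cyclin of entry into the cycle, went from 8.78 ± 2.14 to 1.55 ± 0.0535 TPM (-1.91 (SE 0.21, adjusted p 1.66e-07)); it overlaps Oraov1. The 1 higher was Aurka (2.18 to 2.56 TPM at 5 weeks and 2.22 to 6.36 TPM at 25 weeks, adjusted p 0.0479), chosen after its values were seen, and the call was lost in 15 alternatives.

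The promoters of Top2a, Mki67 and Ccnb2 are printed because genes of this list moved together and many of them carry the CCAAT box of the factor NF-Y and the CHR element of the DREAM complex (written TTTGAA in 1 form and TTTAAA in the other), which are typical of genes used in mitosis. Of the 23 members called lower, 17 had a promoter in the RefSeq table. Within 250 bases 15 of these 17 held CCAAT (88.2%), 10 held a CHR (58.8%) and 9 held both (52.9%), against 33.8%, 25.2% and 8.78% of all 32851 promoters, counted on either strand. The 2 sides were counted differently. The list has 1 promoter per gene, whereas the 32851 were limited neither to 1 per gene nor to genes tested here. The share over the tested genes was not computed. All 20 tested members with a promoter, called or not, gave much the same: 17 with CCAAT (85%), 12 with a CHR (60%) and 10 with both (50%). The 3 sequences are on GRCm38.p6, minus strand, 5′ to 3′, with each match, on either strand, in capitals.
Top2a, chr11:99024190-99024439: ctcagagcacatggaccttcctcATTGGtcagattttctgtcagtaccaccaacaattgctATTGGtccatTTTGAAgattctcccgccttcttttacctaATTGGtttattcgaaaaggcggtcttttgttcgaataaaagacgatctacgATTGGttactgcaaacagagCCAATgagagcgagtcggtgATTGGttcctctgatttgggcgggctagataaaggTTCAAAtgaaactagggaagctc
Mki67, chr7:135716380-135716629: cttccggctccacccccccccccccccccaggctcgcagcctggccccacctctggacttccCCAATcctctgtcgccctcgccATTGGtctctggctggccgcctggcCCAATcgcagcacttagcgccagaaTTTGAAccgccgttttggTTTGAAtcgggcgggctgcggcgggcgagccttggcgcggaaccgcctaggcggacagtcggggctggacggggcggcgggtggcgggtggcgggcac
Ccnb2, chr9:70421555-70421804: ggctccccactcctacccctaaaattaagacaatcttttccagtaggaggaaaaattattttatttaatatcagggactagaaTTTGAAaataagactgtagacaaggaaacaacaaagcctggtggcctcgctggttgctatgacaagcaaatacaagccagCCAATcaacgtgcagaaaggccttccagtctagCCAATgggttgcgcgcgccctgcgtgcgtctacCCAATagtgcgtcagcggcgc
The counts in these windows are 6 CCAAT and 2 CHR for Top2a, 3 and 2 for Mki67, and 3 and 1 for Ccnb2.

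Of 15 tested myogenic and satellite cell genes 9 were called lower and none higher, 5 in all scalings. Myogenin (Myog), the factor of terminal differentiation, had 5.09, 5.45, 4.94 and 7.33 TPM at 5 weeks and 0.682, 0.721, 0.861 and 1.16 TPM at 25 weeks and changed by -1.84 (SE 0.27, adjusted p 1.39e-05). Mymk, the membrane protein that drives fusion, had 0.956, 0.982, 0.912 and 0.877 TPM at 5 weeks and was listed at 0 in all 4 libraries at 25 weeks. Mymx, which acts with it, had 0.0498 to 0.363 TPM at 5 weeks and 0 to 0.0773 TPM at 25 weeks and was not called (adjusted p 0.529). Myf5 changed by -0.38 (not in all scalings), while Myod1, named after its values were seen, had 2.03 to 3.07 TPM at 5 weeks and 2.4 to 3.18 TPM at 25 weeks (adjusted p 0.852). Pax7, the marker of satellite cells, was too low to be tested, at 0.377 to 0.682 TPM at 5 weeks and 0.120 to 0.238 at 25 weeks, without overlap. At the neuromuscular junction 7 of 19 tested genes were called lower, 5 in all scalings, and 1 higher (5 and 3 with median-of-ratios). The receptor subunit Chrnb1 went from 13 ± 2.15 to 5.32 ± 0.768 TPM (-1.15), and the receptor kinase Musk, chosen after its values were seen, from 3.65 ± 0.585 to 5.98 ± 0.942 TPM (0.58).

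Fewer genes were called higher than lower in TPM, though not with median-of-ratios or quantile normalization. Fbxo32 (ENSMUSG00000022358, chromosome 15, 58175879 to 58214932), the ubiquitin ligase atrogin-1 that marks muscle atrophy, had 6.86, 8.1, 4.55 and 10.5 TPM at 5 weeks and 36.9, 36.1, 42 and 41.8 TPM at 25 weeks. Every 25-week library was above the highest at 5 weeks, and the 4 were close to each other. Fbxo32 changed by 2.29 (SE 0.20, adjusted p 4.84e-09). Klhl38, which lies 99640 bases away on the same strand, had 2.71, 2.38, 1.9 and 3.35 TPM at 5 weeks and 10.7, 13.3, 10.2 and 10.2 TPM at 25 weeks and changed by 1.77 (SE 0.21, adjusted p 7.43e-07). Of 23 tested atrophy and FoxO genes 5 were called higher and 1 lower, all 6 in all scalings; with median-of-ratios 12 were higher, 3 were higher without replicate 3 at 5 weeks or replicate 2 or 3 at 25 weeks, and 2 without both replicate 3 at 5 weeks and replicate 4 at 25 weeks. The autophagy gene Gabarapl1 (0.60) and the ligase Fbxo40 (0.48) were higher and Foxo6 (-0.77) lower. Trim63 (MuRF1), the other classical atrophy ligase, had 38.5 to 43.9 TPM at 5 weeks and 34.6 to 68.3 TPM at 25 weeks (adjusted p 0.189) and was named after its values were seen.

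Mss51, a muscle gene tied to mitochondrial metabolism, had 2.36, 1.66, 2.11 and 3.17 TPM at 5 weeks and 23.7, 26.7, 27.8 and 8.65 TPM at 25 weeks. Replicate 4 at 25 weeks was well below the others of its age and still above all at 5 weeks, and the change was 2.67 (SE 0.35, adjusted p 3.29e-06). Actr3b, a subunit of the ARP2/3 actin-branching complex, had 0.433, 0.533, 0.539 and 0.636 TPM at 5 weeks and 7.0, 7.11, 5.88 and 6.37 TPM at 25 weeks, with little spread at either age, and changed by 2.30 (SE 0.11, adjusted p 1.78e-14). Asb15, a muscle ankyrin-repeat protein, had 1.84 to 3.11 TPM at 5 weeks and 6.19 to 12.6 TPM at 25 weeks (1.45). Mib1 had 3.92 to 8.12 TPM at 5 weeks and 18.5 to 31.8 TPM at 25 weeks, without overlap (adjusted p 1.74e-05); the host of the muscle microRNAs miR-1a-2 and miR-133a-1 overlaps it, and their reads may be split between the genes. Amy1 (1.79) overlaps Rnpc3. Inmt, a methyltransferase, went from 2.16 ± 0.74 to 12.9 ± 2.74 TPM (2.14), the glutathione-degrading Chac1 from 4.66 ± 3.23 to 14.5 ± 2.97 TPM (1.64) and the secreted Dkk3 from 1.28 ± 0.523 to 6.38 ± 4.77 TPM (1.52). Nqo1, an antioxidant enzyme, had 3.1 to 3.68 TPM at 5 weeks and 8.65 to 12.1 TPM at 25 weeks (1.29 (SE 0.13, adjusted p 2.56e-08)), and Gpx3 changed by 0.96. Of 24 tested metallothionein and oxidative stress genes 2 were called higher and 2 lower, and 9 and 0 with median-of-ratios. Of 12 tested integrated stress response genes 1 was called higher and 6 lower, and 1 and 4 with median-of-ratios.

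Amd1, the decarboxylase that supplies propylamine groups for spermidine and spermine, had 60.2, 62.6, 51.4 and 70.4 TPM at 5 weeks and 205, 164, 187 and 296 TPM at 25 weeks. The ages did not overlap, replicate 4 was the highest at both, and the change was 1.76 (SE 0.16, adjusted p 9.28e-09). The near-identical copies Amd2 and Amd-ps3 rose by 1.70 and 1.70; reads shared among the copies make their single values uncertain. Spermine oxidase (Smox), chosen after its values were seen, had 11.5, 25.5, 18.6 and 25.8 TPM at 5 weeks and 33.6, 37.1, 44.6 and 50.4 TPM at 25 weeks and changed by 1.04 (SE 0.25, adjusted p 0.00313). Of 11 tested polyamine genes 3 were called higher and 3 lower. The lower ones included spermidine synthase Srm (-0.77) and the antizyme inhibitor Azin1 (-0.77). Ornithine decarboxylase (Odc1), the entry enzyme, named after its values were seen, had 19.4 to 27.7 TPM at 5 weeks and 20.9 to 27.4 TPM at 25 weeks (adjusted p 0.957).

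Transcripts of the mitochondrial genome were called higher in 5 of 13, all in all scalings, and in none lower (median 0.34). The number was 10 with median-of-ratios, 10 when replicate 4 at 25 weeks was left out, and 2 or 3 when replicate 3 or 4 at 5 weeks or replicate 1, 2 or 3 at 25 weeks was left out. mt-Nd1 had 5527, 5906, 4159 and 4472 TPM at 5 weeks and 7271, 8710.5, 8579 and 5320.0 TPM at 25 weeks, and replicate 4 at 25 weeks was below the highest library at 5 weeks. mt-Nd3 changed by 0.60, mt-Nd2 by 0.62 and mt-Co3 by 0.37. Short mitochondrial tRNA genes were 2 of the 15 higher genes that the rule for named genes gave. mt-Tg had 2.44, 1.9, 1.92 and 2.04 TPM at 5 weeks and 26.2, 26.7, 4.73 and 3.29 at 25 weeks, so replicates 1 and 2 were far above 3 and 4. mt-Tr had 19.4, 22.6, 7.63 and 3.4 TPM at 25 weeks in the same order, and libraries of this kind capture such short RNAs poorly. Both calls were lost without replicate 1 or replicate 2 at 25 weeks.

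Nuclear genes of energy metabolism depended on the scaling. Among 76 tested nuclear OXPHOS genes TPM called 5 lower (0 to 7 without single libraries) and none higher, no gene was called in all scalings, and median-of-ratios called 9 higher and none lower. Cox5a, for instance, had 296 to 380.4 TPM at 5 weeks and 217 to 284 TPM at 25 weeks, a change of -0.36 with TPM and -0.04 with median-of-ratios. Of 32 genes of lipid uptake and oxidation 3 were called higher in all scalings and 2 lower, the latter in none of the 4 other scalings and 0 or 1 in every fit without 1 library; 14 were higher with median-of-ratios, 16 without replicate 4 at 25 weeks and 0 without replicate 2 at 25 weeks. The fatty acid oxidation genes Acadm (0.51), Hadhb (0.51) and Ech1 (0.69) were the 3. Acadm had 70.4, 70.2, 45.7 and 52.2 TPM at 5 weeks and 101, 107, 91.6 and 50.0 TPM at 25 weeks, and replicate 4 at 25 weeks lay within the 5-week range. Glycolysis and glycogen genes gave 3 higher and 9 lower calls of 26, 5 of the lower in all scalings, and 10 higher and 5 lower with median-of-ratios, so the balance turned with the scaling. Pgk1 changed by -0.86 (SE 0.11, adjusted p 3.02e-06) and Pgam2 by -0.72, both lower. The 3 higher were Pfkm (0.36), Hk2 (0.41) and Pfkfb1 (0.62), which feed or regulate the pathway at its start and were chosen after their values were seen. None of them was called without replicate 3 at 5 weeks or without replicate 2 at 25 weeks. Hk2 and Pfkfb1 lost their calls in further fits without 1 library.

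Ribosomal protein and proteasome genes likewise gave no call in all scalings. Of 82 ribosomal protein genes 8 were lower with TPM, 4 to 15 when single libraries were left out (for example Rps2, -0.51), and 16 higher and 2 lower with median-of-ratios. Of 41 proteasome genes 4 were lower with TPM, 1 to 6 without single libraries (Psma3, -0.51), and 12 higher with median-of-ratios. Chaperones gave 9 lower calls of 26, 4 in all scalings, and 5 lower and 3 higher with median-of-ratios, among them the endoplasmic reticulum proteins Calr (-0.74) and Pdia3 (-0.98), which fold collagens and other secreted proteins. Jund (-1.13) led 7 lower calls among 18 immediate early genes, 2 in all scalings and 3 without replicate 4 at 5 weeks. Of 10 tested genes related to sex steroids 1 was called in each direction, and the higher was the muscle kinase Mylk4, from 87.6 ± 15.3 to 188 ± 57.6 TPM (adjusted p 0.0303), a call lost without replicate 3 or 4 at 5 weeks or replicate 1, 2 or 4 at 25 weeks.

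Markers of other cells moved to different degrees. Schwann cell and myelin genes were lower in 7 of 9 tested, 5 in all scalings, and their summed level ran from 67.9 to 216 TPM at 5 weeks and 23.2 to 34.2 at 25 weeks. Pmp22, a protein of compact myelin, changed by -2.11. It had 120 TPM in replicate 1 at 5 weeks and 38.7 to 43.2 in the others of that age, a large part of the summed level. Fibroblast genes were lower in 11 of 19, in 4 with all scalings, and in 7 without replicate 1 at 5 weeks or without replicate 2 at 25 weeks (median -0.60), with a summed level of 463 to 660.3 TPM at 5 weeks and 358 to 578 at 25 weeks. Pdgfra, the defining receptor of fibro-adipogenic progenitors, named after its values were seen, had 8.0 to 12.7 TPM at 5 weeks and 5.82 to 8.56 TPM at 25 weeks and was not called in all scalings (-0.52 with TPM, -0.24 with median-of-ratios). The part of fibroblast number in the changes of Col3a1 (-3.56) and Col1a2 (-3.92) was not tested.

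Endothelial genes were lower in 7 of 21, 2 in all scalings and 4 without replicate 1 at 5 weeks, shares near the 26.0% and 9.72% of all genes, with a summed level of 300.1 to 479 TPM at 5 weeks and 285 to 383 at 25 weeks. The junction genes Cdh5 and Pecam1 changed by -0.93 and -0.61, the latter not in all scalings. Apelin (Apln), a peptide of sprouting vessels, had 4.26, 5.1, 3.83 and 3.58 TPM at 5 weeks and 0.222, 0.492, 0.316 and 0.408 TPM at 25 weeks, and the ages were far apart (-1.93 (SE 0.19, adjusted p 2.06e-08)). Macrophage genes were lower in 9 of 22, 5 in all scalings and 5 without replicate 2 at 25 weeks, with a sum of 114 to 168 TPM at 5 weeks and 70.2 to 105 at 25 weeks. The scavenger receptors Mrc1 and Cd68 changed by -1.23 and -0.97. Of 20 complement genes 5 were called lower and 1 higher, near the 26.0% and 2.59% of all genes, and 1 lower in all scalings. The lower count was 2 without replicate 1 and 3 without replicate 3 at 5 weeks and 1 without replicate 2 at 25 weeks, and C1qb changed by -0.97. Interferon genes were lower in 11 of 29, 5 in all scalings, for example Bst2 (-1.16) and Irf9 (-0.68). The interferon count fell to 5 without replicate 1 at 5 weeks and to 6 without replicate 3 of either age.

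Adipocyte genes (20 tested) and erythrocyte genes (8 tested) gave 0 calls by limma, with 1 and 0 genes at an unadjusted p under 0.05. Adiponectin (Adipoq) had 33.6, 15.2, 2.27 and 23 TPM at 5 weeks and 34.1, 3.84, 4.55 and 37.1 TPM at 25 weeks, an uneven spread within both ages. Of 6 tested lymphocyte and MHC class II genes 1 was called higher and none lower, 4 higher with median-of-ratios. Ighm had 22.2 to 60.6 TPM at 5 weeks and 53.5 to 113 TPM at 25 weeks (0.98, adjusted p 0.0242), a call lost without replicate 1 or 3 at 5 weeks or replicate 1 at 25 weeks. Ighg2c, an IgG constant region chosen after its values were seen, was listed at 0 in all 4 libraries at 5 weeks and had 5.96, 4.54, 2.44 and 1.74 TPM at 25 weeks. The T cell marker Cd3e was at most 0.0437 TPM in any of the 8. The major urinary proteins Mup10 and Mup17, liver pheromone carriers known from fat as well, had 1.96 to 18.9 TPM at 5 weeks and 0 to 0.645 TPM at 25 weeks and 0.845 to 11.1 TPM at 5 weeks and 0 to 0.0892 TPM at 25 weeks, and the lowest 5-week values of both were in replicate 3. They belong to a family of near-identical genes, so single values are uncertain. Tceal7 went from 97.5 ± 39 to 9.81 ± 0.958 TPM (-3.11); it overlaps Bex1.

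To ask whether males and females matured alike, the change in WT males was set against that in WT females. In females 236 genes were called (1.84%), 151 higher (1.18%) and 85 lower (0.663%), and the median change was 0.06. Both sexes called 162 genes, all in the same direction, which is 4.43% of the male and 68.6% of the female calls. Of the 1246 genes lower in all scalings in males 1035 had a lower estimate in females (83.1%, against 36.4% of all tested genes), and of the 329 higher genes 319 had a higher one (97%, against 63.6%). The difference between the sexes itself, tested in the same model, was called for 324 genes (2.53%), 305 with the more negative change in males (2.38%) and 19 with the more positive (0.148%). The count fell to 46 without replicate 1 of the 5-week males and to 183 without their replicate 3. Without replicate 1, 2 or 3 of the 25-week males it was 174, 79 and 142. Leaving out replicate 1, 2 or 3 of the females gave 62, 87 and 205 at 5 weeks and 118, 145 and 112 at 25 weeks. The sex differences below are from all libraries, and whether the call of a single gene was kept without 1 library is not given here. The median of this difference over all genes was -0.27, and 78 genes, 61 and 17, were called in all scalings. The mitochondrial share in females was 36.4% to 42.6% at 5 weeks and 33.8% to 38.1% at 25 weeks. The remainder left for genes other than mitochondrial and Rn7s was 33.8% to 36.9% and 34.3% to 37.1% in females. In males it was 36.5% to 40.6% and 28.4% to 37.5%. Its part in the difference between the sexes was not tested.

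**Figure D5:**
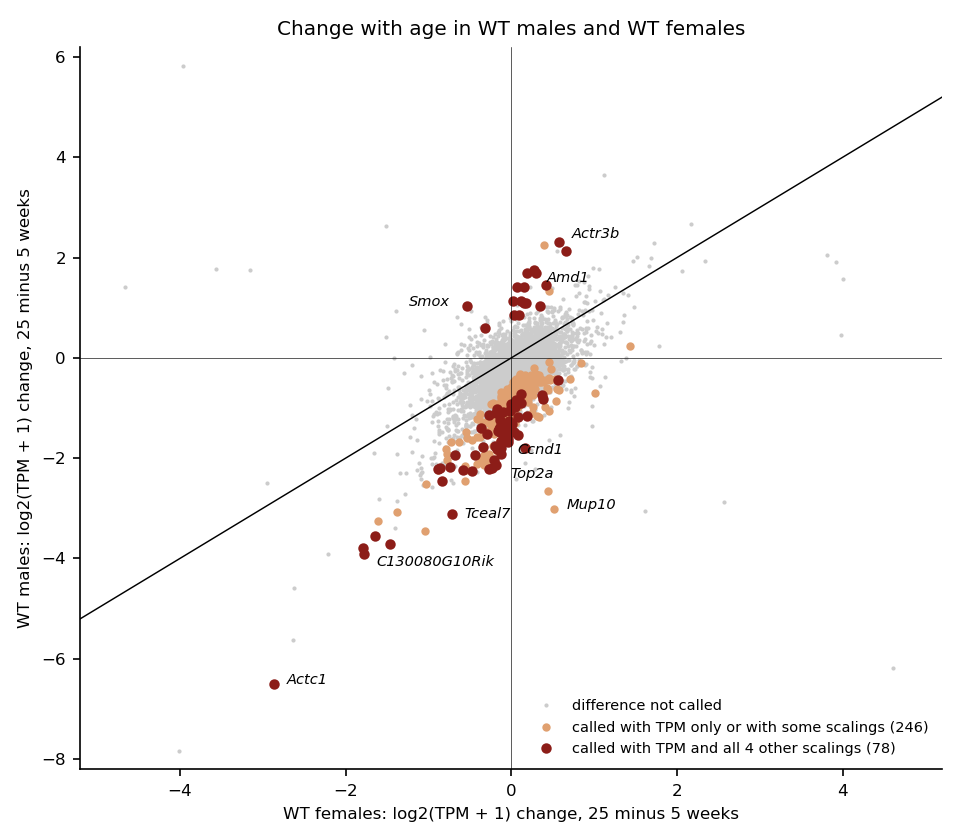
Change of log2(TPM + 1) with age in WT females (x axis) and WT males (y axis) for 12817 genes, with the line of equal change. Grey points are genes whose difference between the sexes was not called, light orange points 246 genes called in TPM or some scalings, and dark red points 78 genes called in all 5; most lie below the line, while Actr3b, Amd1 and Smox lie above it.

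Actc1, 11 of 26 cell cycle genes and a minority of the matrix genes had the more negative change in males, against 2.38% of all genes. The matrix calls were 3 of 10 fibrillar collagens, 1 of 4 collagen VI genes, 4 of 15 basement membrane, 3 of 21 collagen processing, 3 of 22 proteoglycan and 3 of 17 elastic fibre genes. Of the matrix genes, Col15a1, Plod1, Fkbp10, Postn and Mfap4 lost the call in at least 1 of the 4 other scalings. Outside the matrix, 4 of 16 IGF axis, 3 of 19 imprinted and 3 of 21 endothelial genes were called in the same direction. All these list counts are in TPM. The calls of the 4 IGF axis genes, Igf1, Igfbp7, Irs1 and Socs2, were each lost in at least 1 of the 4 other scalings. Those of Rian, Cdh5 and Pecam1 were lost in at least 1 too. Actc1 went from 698 ± 234 to 99.7 ± 48.3 TPM in females, a change of -2.86, against -6.49 in males, a difference of -3.63 (SE 0.51, adjusted p 0.000334). Col3a1 went from 202 ± 59 to 62.3 ± 7.28 TPM in females, with a difference of -1.91 (SE 0.44, adjusted p 0.0237). Col6a2 changed by -0.85 in females and differed by -1.33 (SE 0.19, adjusted p 0.000334), and Col4a1 by -1.44 (SE 0.27, adjusted p 0.00854). Top2a had 0.733 ± 0.617 to 0.466 ± 0.197 TPM in females and differed by -1.96 (SE 0.46, adjusted p 0.0241), and Mki67 had 0.373 ± 0.294 to 0.234 ± 0.134 TPM and differed by -1.65 (SE 0.39, adjusted p 0.0237). Their means at 5 weeks in males were 4.49 ± 0.95 and 2.92 ± 0.475 TPM. Ccnd1 differed by -1.79 (SE 0.30, adjusted p 0.00170) and Apln by -1.50 (SE 0.26, adjusted p 0.00383). These 8 genes were called in all scalings of all libraries. In fits without 1 library the difference ran from -2.18 to -1.68 for Col3a1, -2.16 to -1.79 for Top2a and -1.79 to -1.57 for Mki67. Igf1 went from 9.77 ± 2.24 to 5.19 ± 0.644 TPM in females and differed by -1.25 (SE 0.35, adjusted p 0.0472), a call kept in 1 of the 4 other scalings. Col1a1 (adjusted p 0.0958), Col1a2 (0.066), Col6a1 (0.0577), Col6a3 (0.0631) and Sparc (0.0597) had negative estimates of the difference that were not called.

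Of 11 polyamine genes 3 had the more positive change in males, as had Actr3b, against 0.148% of all genes. Amd1 and its near-identical copies share reads, so they do not count as independent genes. Srm and Azin1 had negative estimates of the difference that were not called (adjusted p 0.155 and 0.17). Amd1 went from 33.2 ± 7.13 to 39.8 ± 2.64 TPM in females and differed by 1.48 (SE 0.23, adjusted p 0.000755), with its copies Amd2 (1.51) and Amd-ps3 (1.41) alike. Smox went from 15.3 ± 5.02 to 10.1 ± 2.59 TPM in females, an estimate of -0.54 against 1.04 in males, and differed by 1.57 (SE 0.36, adjusted p 0.0237). Actr3b had 0.186 ± 0.043 to 0.808 ± 0.452 TPM in females and differed by 1.73 (SE 0.16, adjusted p 1.80e-07). Tmem132b, a membrane protein gene that was at or below 0.0175 TPM at 5 weeks in males and 0.968 to 1.33 at 25 weeks, differed by 0.93 (SE 0.11, adjusted p 3.83e-05). The differences of Amd1, its copies, Smox, Actr3b and Tmem132b were called in all scalings. The atrophy ligase Fbxo32 went from 12.5 ± 2.4 to 43.2 ± 2.29 TPM in females, with a difference of 0.56 (SE 0.29, adjusted p 0.203), so no difference between the sexes was called there. Likewise Mss51 differed by 0.50 (SE 0.50, adjusted p 0.494), Myog by -1.19 (SE 0.38, adjusted p 0.0736) and H19 by -1.98 (SE 0.57, adjusted p 0.0554).

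The third question was whether the change with age in WT males differed from that in Col6a2-/- males, whose libraries are separate from those of WT at both ages. Both tests of a difference use the same 8 WT male libraries. In Col6a2-/- males 3315 genes were called (25.9%), 379 higher (2.96%) and 2936 lower (22.9%), with a median of -0.19. Of the 1246 genes lower in all scalings in WT males 1047 were called lower there too, and of the 329 higher genes 212 were called higher. The difference was called for 23 genes (0.179%), 21 with the more positive change in WT (0.164%) and 2 with the more negative (0.0156%), and 15 were called in all scalings. Of the 23, 17 were not called with age in WT males. Without replicate 4 of the 25-week WT males 24 were more positive and 10 more negative in WT. The total of 23 fell to 13 or 14 without replicate 3 or 4 of the 5-week or replicate 1 or 3 of the 25-week WT males, and to 12 without replicate 3 of the 5-week Col6a2-/- males.

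Of the 21, 18 had means under 5 TPM in WT males at both ages and a higher mean in Col6a2-/- males than in WT males at 5 weeks. The filter asked for 1 TPM in 4 of the 32 libraries. A gene high only in Col6a2-/- males at 5 weeks could thus enter through that group, and the pattern may partly follow from the filter. With no filter the difference was called for 59 genes, 53 more positive and 6 more negative in WT. Aldh3a1 had 0.072 ± 0.0716 and 0.076 ± 0.106 TPM in WT males and went from 23 ± 7.6 to 0.15 ± 0.112 TPM in Col6a2-/- males, a difference of 4.34 (SE 0.41, adjusted p 7.14e-08). Mymx, the fusion micropeptide, differed by 3.44 (SE 0.32, adjusted p 7.14e-08) and its partner Mymk by 1.36 (SE 0.27, adjusted p 0.0213). The embryonic myosin Myh3 went from 1.35 ± 0.362 to 0.87 ± 0.357 TPM in WT and 14.1 ± 2.71 to 2.18 ± 0.499 TPM in Col6a2-/- males, a difference of 1.91 (SE 0.32, adjusted p 0.00206). Myl4 differed by 2.35 (SE 0.32, adjusted p 0.000123), and sarcolipin (Sln), named after its values were seen, by 3.54 (SE 0.60, adjusted p 0.00232). Krt18 differed by 2.79 and the fetal receptor subunit Chrng by 1.37. Myh3, Myl4, Mymk, Mymx and Chrng are known from regenerating or immature fibres, and Krt18 from epithelia.

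Of the genes that rose in WT males, Fbxo32, Mss51 and Tmem37 had the more positive change there. Fbxo32 went from 20.6 ± 4.81 to 38.5 ± 8.35 TPM in Col6a2-/- males, and the difference was 1.42 (SE 0.29, adjusted p 0.0219). WT males had 7.49 ± 2.46 TPM at 5 weeks and 39.2 ± 3.14 at 25 weeks, so the means of the genotypes were further apart at 5 weeks. Mss51 went from 4.66 ± 1.52 to 6.25 ± 0.917 TPM and differed by 2.28 (SE 0.50, adjusted p 0.0497), a call lost in 1 of the 4 other scalings. Tmem37, a calcium channel-like gene chosen after its values were seen, rose from 2.85 ± 0.663 to 9.71 ± 2.76 TPM in WT males and differed by 1.09 (SE 0.22, adjusted p 0.0211). The 2 genes with the more negative change in WT were Col6a2, which is deleted in the other arm (-2.15), and the chemokine receptor Ackr3 (-0.84 (SE 0.18, adjusted p 0.0497)), which went from 7.07 ± 0.719 to 3.43 ± 0.611 TPM in WT and 6.89 ± 1.36 to 6.69 ± 1.29 TPM in Col6a2-/- males. The calls of Ackr3 and Sln were lost in 1 other scaling each and that of Mymk in 2. Actc1 went from 1294 ± 296 to 63.6 ± 14.6 TPM in Col6a2-/- males, a change of -4.33 against -6.49 in WT, and that difference was not called with TPM (adjusted p 0.105) and was called with median-of-ratios (adjusted p 0.0364). Col3a1 changed by -2.63 there, Igf1 by -1.59, Top2a by -2.28 and Amd1 by 2.12, beside -3.56, -2.03, -2.14 and 1.76 in WT, and none of these 4 differences was called.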

How the data were processed

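Per the labels' protocols, 150 ng of total RNA with a RIN of at least 8 went into TruSeq RNA libraries, read as paired ends of 150 bases. The submitters' processing notes name FastQC, MultiQC, Trimmomatic, HISAT2, SAMtools and StringTie, without versions or order, and the build GRCm38 (mm10). TPM values, the basis of every test, were made by the authors, per the file headers, and add up to one fixed total per library. FPKM values and the mean coverage of each gene were deposited by the authors beside them, per the file headers; their ratio served only to infer sequenced bases, so depth is relative and read counts are not used here.

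TPM was summed over rows of the same gene ID (53801 IDs, 53706 of them in GENCODE M21). For the 12817 genes that reached 1 TPM in 4 or more of the 32 libraries, log2(TPM + 1) was fitted with 8 group means in limma 3.58.1 (lmFit, eBayes with trend, R 4.3.3), with p-values adjusted by Benjamini-Hochberg over all genes. Such changes understate those of genes with low TPM. Each mouse is 1 sample by the labels. Library measures were compared by exact permutation (70 splits, two-sided). Alternatives were another pseudocount (0.1), no filter or a filter at 5 TPM, 4 other scalings, depth as a covariate, array weights, a replicate block, fewer libraries in the fit, and leaving out each library. The fit was tested on simulated data. Other tools were Python 3.11.15, numpy 2.4.6, pandas 2.3.3, data.table (version 1.17.8) and matplotlib 3.10.9.

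Genes were named by rule: the 15 called genes in each direction with the largest change, without overlap and with a mean of at least 5 TPM, up to 4 called members of each of 46 lists by p, all expressed members of the myosin, developmental and IGF lists, up to 5 called genes per direction of each difference test, and label checks. Exceptions are marked in the text. Members and lists were chosen with earlier results of these data known. Same-numbered replicates were not treated as pairs.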

Additional observations from a re-analysis of the deposited data

Results flagged for a closer look

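In 27 of 284 groups of 4 examined, 1 library lay apart from the other 3 by Dixon's ratio, where chance gives about 1 in 20. Replicate 4 at 25 weeks was that library in 12 of the 27. Its mitochondrial share was 32% of TPM, against 44.6% to 46.9% in the other 3. In TPM it was high, given with the range of the other 3, for Actc1 (46.6 against 15.3 to 18.4), Myh4 (6419 against 3855 to 4108), Casq1 (1014 against 637 to 688), Col6a6 (2.17 against 0.739 to 0.836), Mest (1.69 against 0.51 to 0.62), Nqo1 (12.1 against 8.65 to 9.18), Psma3 (41.1 against 34.7 to 35.3) and Igfbp4 (19.2 against 4.78 to 6.71). It was low for Myh2 (68.9 against 469.9 to 549), mt-Co3 (9969.7 against 14606 to 14981) and Cox5a (217 against 282 to 284). Replicate 2 at 25 weeks stood apart in Klhl38 (13.3 against 10.2 to 10.7) and Hbb-bs (1208 against 99 to 182). Replicate 3 at 25 weeks stood apart in Myl4 (1.47 against 1.82 to 1.88), Kera (1.15 against 3.49 to 3.78) and Bst2 (2.33 against 3.6 to 3.84). Replicate 1 at 5 weeks stood apart in Inmt (3.26 against 1.65 to 1.9), Pgk1 (375 against 320.3 to 329) and Pmp22 (120.2 against 38.7 to 43.2). Replicate 2 at 5 weeks stood apart in Myl1 (7399 against 9375 to 9713), Pvalb (6302 against 8397 to 8419.8), C1qb (9.61 against 12.7 to 13) and Hbb-bs (675 against 122 to 197). Replicate 3 at 5 weeks stood apart in Ech1 (46 against 64.3 to 67.6). Replicate 4 at 5 weeks stood apart in H19 (492 against 216 to 229) and Irs2 (4.11 against 1.18 to 1.53).

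The change with age differed between the sexes, by the test of the difference itself (limma, adjusted p under 0.05, WT males minus WT females on the log2 scale), for these named genes. The difference was negative for Actc1 by -3.63, C130080G10Rik by -2.13, Col3a1 by -1.91, Col5a2 by -1.61, Col6a2 by -1.33, Col4a1 by -1.44, Col4a2 by -1.25, Col15a1 by -1.36, Loxl2 by -1.32, Plod1 by -0.74 and Postn by -2.41. It was also negative for Bgn by -1.55, Fbn1 by -1.79, Mfap4 by -1.49, Fstl1 by -1.65, Rian by -1.70, Igf1 by -1.25, Igfbp7 by -1.11, Irs1 by -1.15, Socs2 by -1.70, Top2a by -1.96 and Mki67 by -1.65. The last group of negative differences held Ccnb2 by -0.86, Ccnd1 by -1.79, Cdh5 by -0.82, Pecam1 by -0.70, Apln by -1.50, Cd68 by -1.39, Mup10 by -3.53, Mup17 by -3.10, Tceal7 by -2.40, Ackr3 by -0.74 and Fkbp10 by -1.18. It was positive for Amd1 by 1.48, Amd2 by 1.51, Amd-ps3 by 1.41, Smox by 1.57, Actr3b by 1.73, Ighg2c by 1.47, Tmem132b by 0.93 and Tmem37 by 1.03. The calls of Col15a1, Plod1, Postn, Mfap4, Rian, Igf1, Igfbp7, Irs1, Socs2, Cdh5, Cd68, Mup10, Mup17, Ackr3 and Fkbp10 were lost in at least 1 of the 4 other scalings, and that of Pecam1 in all 4.

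Between WT and Col6a2-/- males the change differed by the same kind of test. The difference was positive for Myh3 by 1.91, Myl4 by 2.35, Mymk by 1.36, Fbxo32 by 1.42, Mss51 by 2.28, Aldh3a1 by 4.34, Mymx by 3.44, Chrng by 1.37, Krt18 by 2.79, Sln by 3.54 and Tmem37 by 1.09, and negative for Col6a2 by -2.15 and Ackr3 by -0.84. The calls of Mymk, Mss51, Ackr3 and Sln were lost in at least 1 of the 4 other scalings.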

How the results depend on the processing

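In the comparison of ages in WT males the count of 3661 genes became 1917 with a filter at 5 TPM, 2226 without mitochondrial and Rn7s genes, 5593 with inferred depth as a covariate and 5515 with array weights, and 2486 to 3747 without single libraries. The share of higher among the calls was 9.07% with TPM, 50.9% with median-of-ratios, 51% with quantile normalization, 31.7% without the 100 most abundant genes and 34.9% without mitochondrial and Rn7s genes. The count for age by sex, 324, became 679 with a pseudocount of 0.1, 88 with no filter, 93 without mitochondrial and Rn7s genes, 143 with quantile normalization, 1235 with depth, 3702 with array weights, 2563 with only the 16 WT libraries, and 215 without replicate 3 at 5 weeks and replicate 4 at 25 weeks of WT males, chosen after the values were seen. It ran from 46, without replicate 1 of the 5-week males, to 430, without replicate 4 of the 25-week males. The count for age by genotype, 23, became 14 with a pseudocount of 0.1, 59 with no filter, 13 at 5 TPM, 48 with median-of-ratios, 62 with quantile normalization, 53 with array weights, 36 with only the 16 male libraries and 15 without the same 2 WT libraries, with a lowest value of 12 on leaving out replicate 3 of Col6a2-/- males at 5 weeks and a highest of 34 on leaving out replicate 4 of WT males at 25 weeks. The filters also changed the number of genes tested, to 6573 at 5 TPM and 32958 with no filter, against 12817. The cause of these moves was not tested. Same-numbered replicates of the 2 ages had correlations of deviations of 0.0956, 0.224, -0.0133 and 0.245, and 2 of 4 libraries at 5 weeks correlated best with their own number, so the numbers were not taken as pairs. With the replicate block the counts were 3721, 334 and 19. Of 123 genes named here and called with age in WT males, 94 kept the call in every alternative run, 104 in every fit without 1 library, and none reversed. Without counts, precision at low TPM is unknown, and 4 mice per group limit small changes.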
